A study of Mus musculus with 39 samples.

Results

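The genes described here are 33 genes of mature, myelinating oligodendrocytes, measured in RNA sequencing libraries of sorted mouse astrocytes. They were chosen by name, and all 33 were found by Ensembl identifier in the deposited tables through the GENCODE M21 annotation, 33 of 55401 genes in all. The study asked how astrocytes of male mice respond to chronic social defeat stress, in which a mouse meets an aggressor repeatedly and how much it then avoids social contact sorts it into a susceptible or a resilient group. The sort of freshly punched tissue used magnetic beads and ACSA-2, a surface antigen of astrocytes (labels' protocols). The 39 libraries fall into 6 groups. Those with the tissue label NAC (nucleus accumbens, written NAc here) came from 8 susceptible, 7 resilient and 7 control mice, and those labelled PFC from 6 susceptible, 5 resilient and 6 control mice. The protocol names only NAc tissue, also for the libraries labelled PFC, and the labels do not spell PFC out. Each library carries a mouse number of its own, and the labels give no strain, age, drug or transgene for any group.

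Oligodendrocytes wrap axons of the central nervous system in myelin, a stack of membrane layers that is rich in galactolipids and held together by a small set of abundant proteins. As these cells mature, the transcription factors Sox10, Nkx6-2 and Myrf switch on genes for myelin proteins and myelin lipids together. Astrocytes do not make myelin, and these genes are commonly used to check the purity of other sorted brain cells.

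The stretches before the starts of these genes were searched for letters known from the factors that drive myelination. RefSeq's promoter table (build GRCm38.p6) held 25 of the 33 members, and 250 bases before each listed start were read on both strands. The core bound by SOX factors (ACAAAG or ACAATG) was found before 12 of 25 members (48%), against 28.2% of the 27025 genes in the table. The MYRF motif (CTGGCAC or CTGGTAC) was found before 7 of 25 members (28%), against 6.79% of those genes. A gene with several starts counted if any of its windows held the motif. The 4 windows below belong to members with values in the text, and they were picked after the matches were seen. The windows of Cldn11 and Ugt8a, which also have values in the text, held neither motif and are not printed. Capitals mark the matches, and each line runs 5′ to 3′ on the strand of the gene and ends at the base before its start.
Mobp, chr9:120149492-120149741, plus strand: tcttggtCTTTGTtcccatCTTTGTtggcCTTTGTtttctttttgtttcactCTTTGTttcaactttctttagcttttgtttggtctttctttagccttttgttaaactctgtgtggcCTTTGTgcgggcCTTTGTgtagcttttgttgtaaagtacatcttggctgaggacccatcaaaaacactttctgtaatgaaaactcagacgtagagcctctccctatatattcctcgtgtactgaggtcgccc
Mog, chr17:37023399-37023648, minus strand: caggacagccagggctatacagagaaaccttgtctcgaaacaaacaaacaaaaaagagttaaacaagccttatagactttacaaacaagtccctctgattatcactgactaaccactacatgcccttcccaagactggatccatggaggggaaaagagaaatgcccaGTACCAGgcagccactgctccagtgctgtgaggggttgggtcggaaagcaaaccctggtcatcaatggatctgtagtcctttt
Cnp, chr11:100574689-100574938, plus strand: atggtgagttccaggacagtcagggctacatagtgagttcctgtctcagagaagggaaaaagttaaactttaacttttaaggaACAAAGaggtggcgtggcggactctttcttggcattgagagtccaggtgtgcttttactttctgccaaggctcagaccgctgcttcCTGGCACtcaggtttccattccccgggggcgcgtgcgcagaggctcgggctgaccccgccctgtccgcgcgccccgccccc
S1pr5, chr9:21248444-21248693, minus strand: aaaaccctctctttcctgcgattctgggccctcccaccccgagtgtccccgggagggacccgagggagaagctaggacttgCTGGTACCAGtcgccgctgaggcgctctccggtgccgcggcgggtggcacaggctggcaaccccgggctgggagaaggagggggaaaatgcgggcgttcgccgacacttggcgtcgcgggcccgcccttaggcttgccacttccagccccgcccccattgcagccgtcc
The window of Mobp, which encodes a protein of compact myelin, held 6 SOX cores, each reading CTTTGT. That of Mog, whose protein sits on the outer surface of myelin, held 1 MYRF motif, on the opposite strand. Cnp, which encodes a phosphodiesterase of uncompacted myelin, had 1 of each. S1pr5, which encodes a sphingosine phosphate receptor of oligodendrocytes, had 2 MYRF matches that overlap on opposite strands. A match describes the letters of the window only.

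The libraries held 941450 to 37339379 counts, with a median of 11264270. The defining astrocyte genes were present in every library, with Aqp4, the astrocyte water channel, at 28.4 CPM or more (CPM are counts scaled to library size, here with trimmed-mean factors) and the glutamate transporter gene Slc1a3 at 199.7 CPM or more. Atp1b2, which encodes the ACSA-2 antigen, was at 63.4 CPM or more. Counts cover whole gene spans, introns included, and an even background over these spans was estimated from 1988 odorant, vomeronasal and trace-amine receptor genes and pseudogenes, nearly all silent outside sensory tissue, as a percent of what even cover of all gene spans would give. This background was 55.3 ± 7.91% in susceptible, 63.8 ± 10.6% in resilient and 52.6 ± 8.97% in control NAc, and 46.4 ± 17.8% in susceptible, 46.9 ± 23.5% in resilient and 49.8 ± 17.5% in control PFC (mean ± SD). Resilient NAc exceeded control NAc by 11.2 percentage points (two-sided exact permutation p = 0.0554, or 0.300 adjusted over the 6 comparisons within regions). The PFC libraries numbered 1 and 2 in each group stood apart. Their background was 13.4 to 43.4%, against 45.9 to 70.6% in the other 11 PFC libraries, and their summed CPM of 12 neuron genes was 1641 to 5624, against 1048 to 1515. The summed CPM of the members was 2471.25 to 3601.94 in these 6 libraries, against 945.921 to 2656.96 in the others. Results in PFC and between regions are given with and without them, a setting chosen after these values were seen.

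The 33 members together made up 0.105% to 0.559% of a library's counts. Per length, in the deposited FPKM (fragments per kilobase of gene span, scaled to library size), Tmem88b averaged 6.55, Cnp 6.30, Mobp 6.21, the membrane raft gene Mal 5.46 and Mag, an adhesion molecule that faces the axon, 5.15 FPKM over all libraries. These levels were 12.7 to 16.2 times the mean background. Mbp, the myelin basic protein gene, averaged 3.64 FPKM, and Cldn11, the claudin of myelin tight junctions, 3.40 FPKM. The lowest levels were those of Ugt8a, whose enzyme makes galactosylceramide, at 0.820 FPKM, Evi2a at 0.736 FPKM and the gap junction gene Gjb1 at 0.666 FPKM, 1.64 to 2.02 times background. In each library 17 to 33 members lay at least 2 times above its own background. Of the members, 14 overlap another annotated gene. For 5 of these it is protein-coding, as Cnp overlaps Dnajc7, Ermn overlaps Galnt5, Nkx6-2 overlaps Inpp5a, Tspan2 overlaps Tshb, and Evi2a overlaps Evi2 and Nf1. Mobp, Mbp, Mog, Enpp2, S1pr5, Pllp, Bcas1, Anln and Prr18 overlap genes of other kinds. For 4 members (Mobp, Anln, Prr18 and Evi2a) an overlapping gene lies on the same strand, where no strand setting separates the reads. How the counting treated strand and overlaps is not stated in the labels or notes, so the values of all 14 are uncertain.

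**Figure D1:**
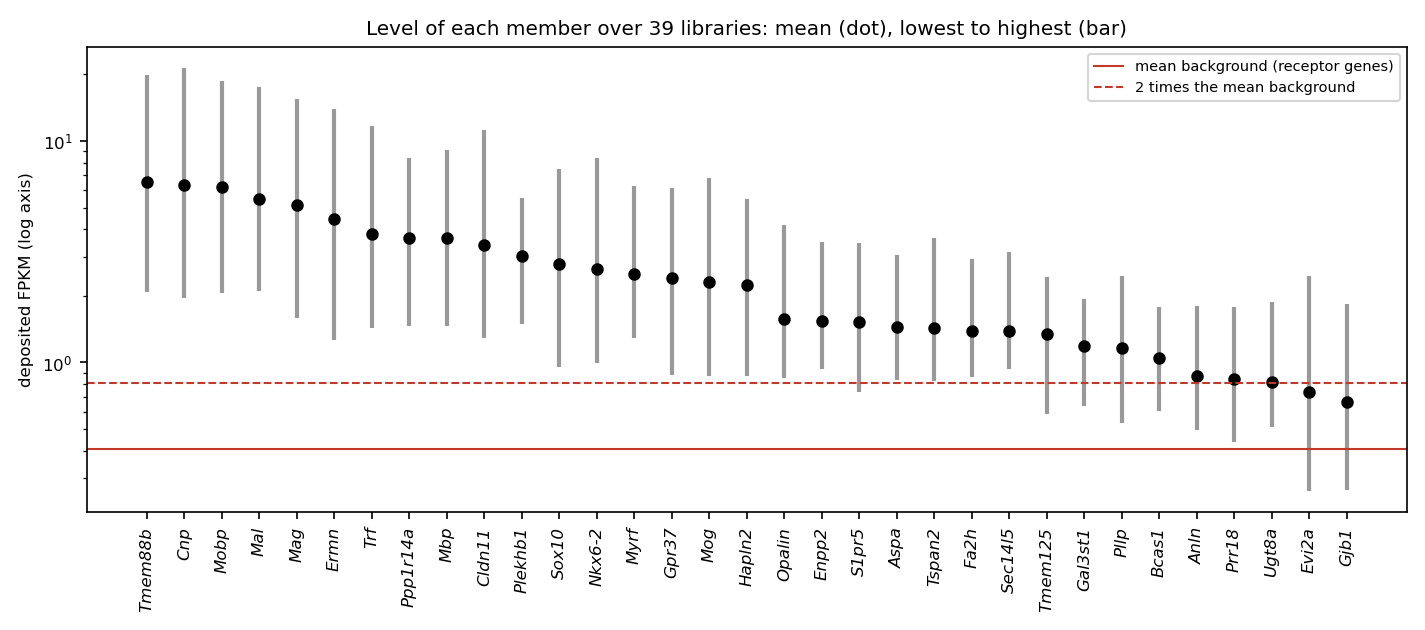
Deposited FPKM of each of the 33 members over the 39 libraries on a log axis, with the mean as a dot and the lowest to highest library as a bar. The solid line is the mean background of the receptor genes and the dashed line 2 times that, and the means of all members but Evi2a and Gjb1 lie above the dashed line.

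Among the 6 groups, control NAc had the highest mean CPM for 32 of 33 members, while resilient NAc had the lowest for 24. Mbp averaged 411 ± 192 CPM in susceptible, 322 ± 184 CPM in resilient and 652 ± 316 CPM in control NAc (SD, n = 8, 7 and 7). In PFC it averaged 347 ± 183 CPM in susceptible, 412 ± 228 CPM in resilient and 333 ± 143 CPM in control libraries (SD, n = 6, 5 and 6). The 5 groups other than control NAc lay closer together than the SD of any of them. In bulk libraries such as these, the purity of the sort, the number of oligodendrocytes and the RNA per oligodendrocyte cannot be told apart, and none of them was tested.

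**Figure D2:**
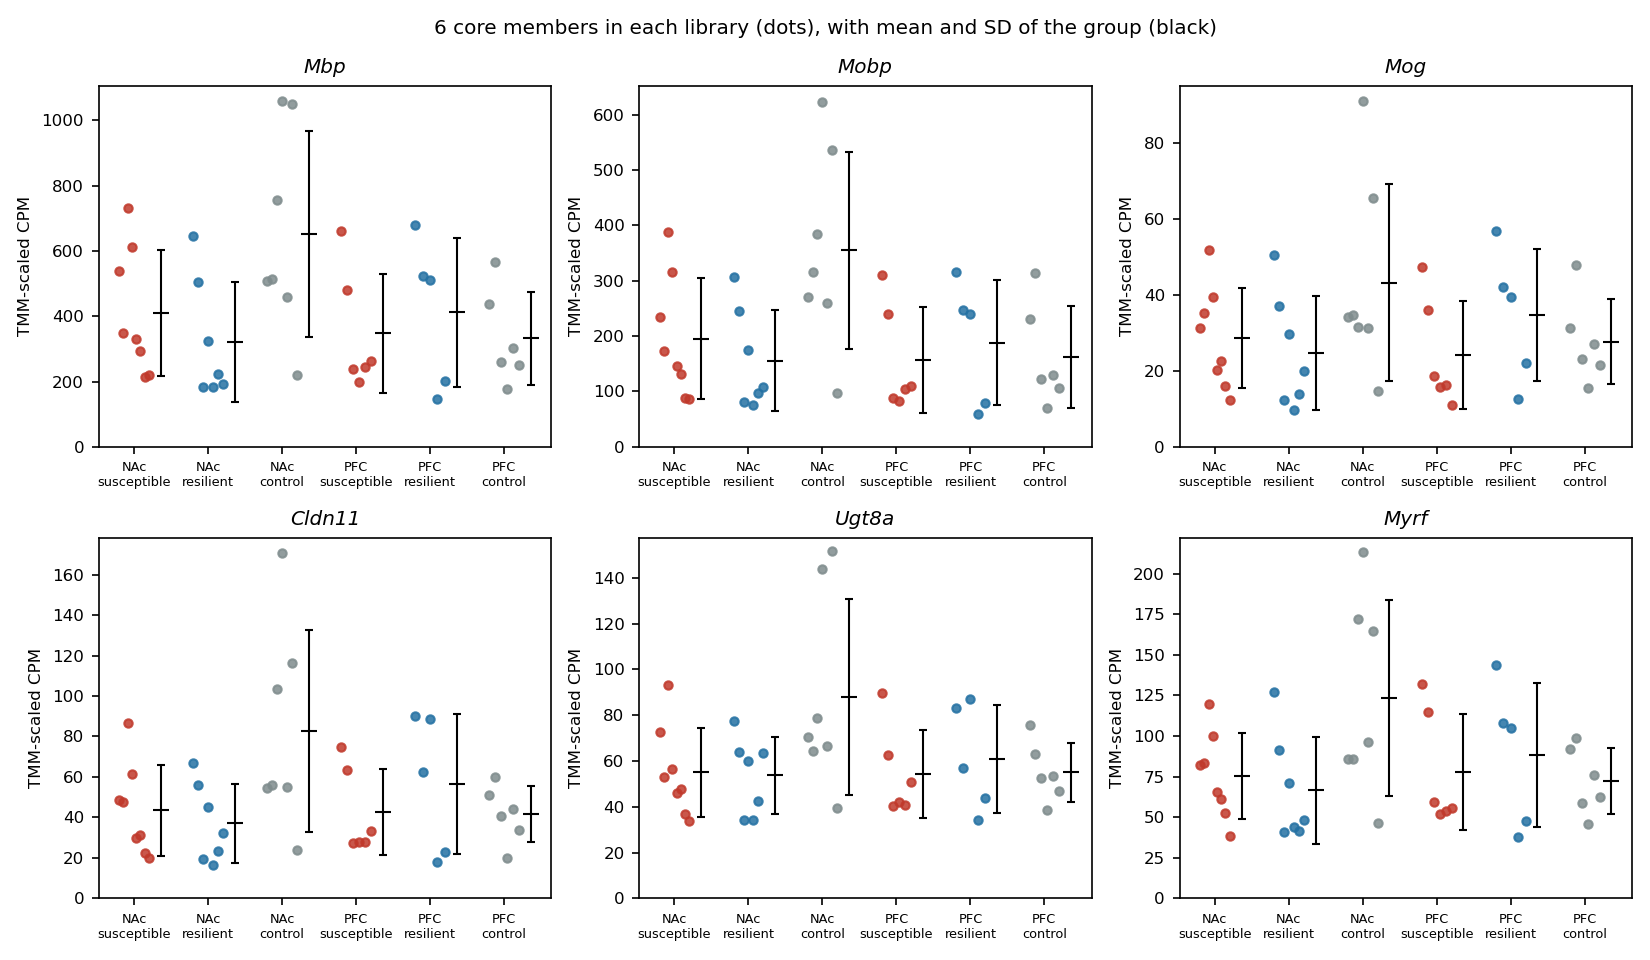
TMM-scaled CPM of Mbp, Mobp, Mog, Cldn11, Ugt8a and Myrf in each library (1 dot each) in susceptible, resilient and control mice of NAc and then PFC, with the group mean and SD in black. The highest library for each of the 6 genes is a control NAc library, and 1 of the 7 control NAc libraries lies among the low libraries of the stressed groups.

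In NAc, all 33 members were lower in susceptible than in control mice, and the median log2 fold change was -0.63, from -0.96 for Mag to -0.15 for Gal3st1, whose enzyme makes sulfatide. In resilient mice all 33 were lower too, with a median of -0.82, from -1.41 for Ermn, which encodes a cytoskeletal protein of oligodendrocytes, to -0.35 for Gal3st1. Over all 35943 genes tested the medians were -0.0011 in susceptible and 0.013 in resilient mice. Both comparisons use the same 7 control libraries. No member was called by edgeR's quasi-likelihood test at an adjusted p under 0.05, in susceptible (0% of all genes called) or in resilient mice (0%), and neither DESeq2 nor limma-voom called one. At an unadjusted p under 0.05, 17 members were lower in susceptible mice, where 1.55% of all genes were, and 31 in resilient mice, where 4.31% were. Of the 35943 genes, only 10937 had a mean FPKM in NAc at least 2 times background. These shares and the medians over all genes thus come largely from genes near background. Of the members, 31 of 33 had a mean FPKM over all libraries at least 2 times background. They are therefore not set here against genes of like level. The 2 members left out in resilient mice were Mog and Tmem125. The groups overlapped for every member, as they did for all but 0.00556% of genes in susceptible and 0.0501% in resilient mice.

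The 12 membrane and adhesion members had median log2 fold changes of -0.71 in susceptible and -0.95 in resilient NAc. Mbp ranged over 214, 339 and 730.4 CPM in susceptible, 182, 223 and 645 CPM in resilient and 219, 514 and 1059 CPM in control NAc (lowest, median and highest library). Of the 7 control libraries, 6 lay above the susceptible median and 6 above the resilient median, and the remaining one lay below both medians. Its log2 fold change was -0.68 ± 0.37 (SE, edgeR adjusted p = 1.00) in susceptible and -1.05 ± 0.39 (adjusted p = 0.756) in resilient mice. Mobp (chr9:120149707-120181484 in mm10) ranged over 86.8, 159 and 388 CPM in susceptible, 75.2, 108 and 308 CPM in resilient and 97.6, 315 and 624 CPM in control NAc. No resilient library and 2 of the 8 susceptible ones exceeded the control median. The difference on the log2 scale was -0.88 ± 0.41 in susceptible and -1.21 ± 0.43 in resilient mice.

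Cldn11 (chr3:31149920-31164324) ranged over 19.7, 39.3 and 86.9 CPM in susceptible, 16.3, 32.3 and 66.6 CPM in resilient and 23.7, 56.1 and 171 CPM in control NAc, and 6 of 7 control libraries exceeded the susceptible median and 6 the resilient one. Its log2 fold change was -0.93 ± 0.41 in susceptible and -1.16 ± 0.43 in resilient mice. Mog (chr17:37010743-37023398) ranged over 12.4, 26.9 and 51.9 CPM in susceptible, 9.66, 20.0 and 50.4 CPM in resilient and 14.7, 34.2 and 90.9 CPM in control NAc, with 3 of 8 susceptible and 2 of 7 resilient libraries above the control median. On the log2 scale it was at -0.61 ± 0.40 in susceptible and -0.82 ± 0.42 in resilient mice, with unadjusted edgeR p-values of 0.141 and, in resilient mice, 0.0614. Bcas1 (chr2:170346991-170427845), a gene of myelinating oligodendrocytes, ranged over 72.5, 79.1 and 112 CPM in susceptible, 58.7, 70.2 and 104 CPM in resilient and 70.2, 105 and 155 CPM in control NAc. It differed by less than Mobp but with little spread. Bcas1 averaged 2.58 times the mean background, and the part of the background in its spread was not tested. Above the control median lay 0 of 7 resilient and 2 of 8 susceptible libraries. The log2 fold change of this gene was -0.41 ± 0.15 (unadjusted p = 0.0103) in susceptible and -0.56 ± 0.16 (unadjusted p = 0.00127) in resilient mice.

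The 5 lipid and metabolic enzymes had medians of -0.57 in susceptible and -0.68 in resilient NAc. Besides Ugt8a and Gal3st1 they are Fa2h, which hydroxylates the fatty acids of myelin lipids, Aspa, which breaks down N-acetylaspartate, and Enpp2, which makes lysophosphatidic acid. Ugt8a (chr3:125865271-125938619) ranged over 33.9, 50.4 and 93.1 CPM in susceptible, 34.0, 60.2 and 77.6 CPM in resilient and 39.3, 70.4 and 152 CPM in control NAc, and 6 of 7 control libraries exceeded the susceptible median. Its log2 fold change was -0.68 ± 0.27 in susceptible and -0.72 ± 0.28 in resilient mice. The 3 transcription factors had medians of -0.72 in susceptible and -0.92 in resilient NAc. Myrf (chr19:10208272-10240748) ranged over 38.3, 73.8 and 119 CPM in susceptible, 41.2, 48.1 and 127 CPM in resilient and 46.6, 96.0 and 213 CPM in control NAc, with 6 of 7 control libraries above the susceptible median and 6 above the resilient one. Fitted log2 fold changes of Myrf were -0.72 ± 0.32 in susceptible and -0.91 ± 0.34 in resilient mice.

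The secreted proteins, the iron carrier Trf and Hapln2, a matrix protein of the nodes of Ranvier, had medians of -0.66 in susceptible and -0.97 in resilient NAc. The receptor genes Gpr37 and S1pr5 had medians of -0.76 in susceptible and -0.94 in resilient NAc. S1pr5 (chr9:21242912-21248443) ranged over 5.72, 6.51 and 13.01 CPM in susceptible, 4.99, 6.46 and 9.82 CPM in resilient and 5.51, 12.1 and 20.1 CPM in control NAc, and 0 resilient libraries and 1 susceptible library exceeded the control median. The log2 fold change of S1pr5 was -0.63 ± 0.23 (unadjusted p = 0.0106) in susceptible and -0.79 ± 0.24 (unadjusted p = 0.00284) in resilient mice. The cytoskeleton-linked genes Ermn, Anln, which binds actin, and Ppp1r14a, an inhibitor of myosin phosphatase, had medians of -0.60 in susceptible and -0.92 in resilient NAc, and the 6 remaining members -0.57 in susceptible and -0.71 in resilient NAc. Among these, Sec14l5 (chr16:5147109-5187271), of a lipid-binding family, ranged over 39.0, 51.0 and 78.1 CPM in susceptible, 37.6, 43.1 and 71.3 CPM in resilient and 46.4, 67.2 and 133 CPM in control NAc, so that all 7 control libraries exceeded the resilient median. For Sec14l5 the log2 fold change was -0.57 ± 0.20 (unadjusted p = 0.00784) in susceptible and -0.67 ± 0.21 (unadjusted p = 0.00336) in resilient mice.

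**Figure D3:**
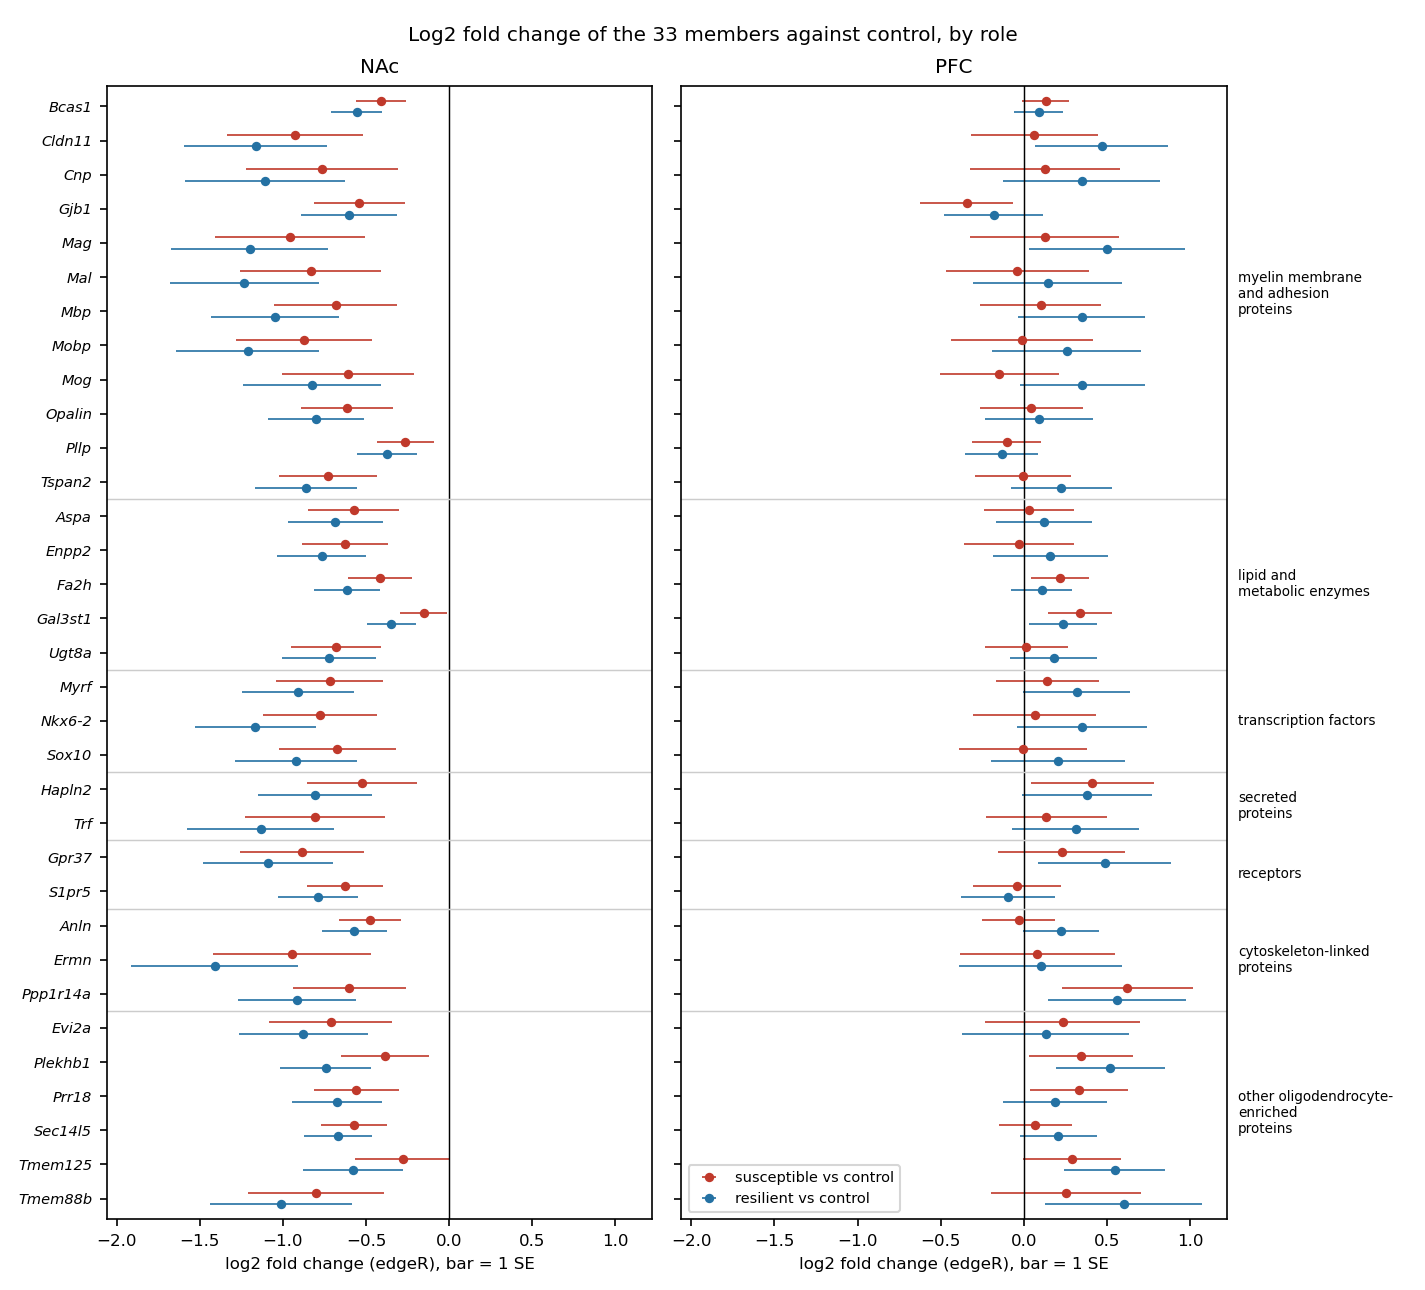
Log2 fold change (edgeR) of each of the 33 members against control in NAc (left) and PFC (right), in susceptible (red) and resilient mice (blue), with bars of 1 SE and grey lines between the roles named at the right. Every NAc value lies below 0, while PFC values lie on both sides of 0.

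Astrocyte genes and background moved with the resilient group. The 19 astrocyte genes had medians of -0.22 in susceptible and -0.58 in resilient NAc, with 18 and 18 of 19 lower. Aqp4 was at -0.33 ± 0.33 in susceptible and -0.85 ± 0.34 in resilient mice, Slc1a3 at -0.19 ± 0.40 in susceptible and -0.58 ± 0.41 in resilient mice, and Atp1b2 at -0.27 ± 0.39 in susceptible and -0.63 ± 0.40 in resilient mice. The summed CPM of the 19 genes ranged from 4804 to 12860.3 in susceptible, 2889 to 14369.5 in resilient and 5296 to 16552 in control NAc, and no library had Aqp4, Slc1a3 or Atp1b2 at 0. With the astrocyte level as a covariate the members' median in resilient NAc was -0.44, with 5 members at an unadjusted p under 0.05, and with the background percent as a covariate it was -0.45, with 3 members. In susceptible NAc these medians were -0.56 with the astrocyte level and -0.55 with the background percent. Here and below, shares of all genes at an unadjusted p under 0.05 are given for the main fits alone. How far these shares moved under other settings was not counted. The neuron genes had medians of -0.015 in susceptible and 0.032 in resilient NAc, and the 12 microglia genes 0.10 in susceptible and -0.034 in resilient NAc. For the 10 endothelial genes the medians were -0.049 in susceptible and -0.15 in resilient NAc. The pericyte and smooth muscle genes were at -0.12 in susceptible and -0.28 in resilient NAc. A mean FPKM at least 2 times background was found for 19 of 19 astrocyte, 7 of 12 neuron and 5 of 12 microglia genes. The same held for 5 of 10 endothelial and 9 of 10 pericyte and smooth muscle genes. The part of this height in the medians of these lists was not tested, here or below. The summed members were 0.268 ± 0.0718 of the summed astrocyte genes in susceptible, 0.306 ± 0.118 in resilient and 0.383 ± 0.141 in control NAc (SD, n = 8, 7 and 7).

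Single control libraries weighed on these values. Among the 22 NAc libraries, control library 4 was the highest for 29 members and control library 6 for the other 4, while control library 7 had a median rank of 5 from the bottom. Without control library 4, the median in susceptible NAc was -0.44, with 2 members at an unadjusted p under 0.05, and in resilient NAc -0.59, with 16 members. In susceptible NAc that number also moved by over 1.5 times without control library 3 (8 members), control library 6 (4), control library 7 (28), susceptible library 3 (27), susceptible library 5 (8), library 6 (8), library 7 (7) and library 8 (7). With limma-voom it was 4, and on log2(FPKM + 0.5) with limma-trend the median was -0.41. No member was called in any of these settings.

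Between the stressed groups of NAc, all 33 members were slightly higher in susceptible than in resilient mice, and the median log2 fold change was 0.20, with a range of 0.043 to 0.47. EdgeR, DESeq2 and limma-voom called no member, edgeR called 0% of genes, and no member had an unadjusted p under 0.05, where 2.9% of genes had one, and 1 had one without resilient library 1. The smallest p belonged to Gal3st1 at 0.19 ± 0.14 (unadjusted p = 0.181), followed by Plekhb1, which encodes a pleckstrin homology domain protein, at 0.36 ± 0.26 and Nkx6-2 at 0.39 ± 0.35. Mbp was at 0.36 ± 0.37, Mobp at 0.34 ± 0.41, Mog at 0.21 ± 0.40, Cldn11 at 0.24 ± 0.41, Ugt8a at 0.043 ± 0.27 and Myrf at 0.19 ± 0.32. The astrocyte genes had a median of 0.35, with 19 of 19 higher, and with their level as a covariate the members' median was -0.10.

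In PFC the members' medians against control were smaller than in NAc, though the fits cannot show that the groups were alike. The median log2 fold change was 0.082 in susceptible mice, with 23 of 33 higher, and 0.23 in resilient mice, with 30 of 33 higher. Over all 32167 genes the medians were -0.015 in susceptible and -0.016 in resilient mice. No member was called by edgeR, DESeq2 or limma-voom in either group, where edgeR called 0% of genes in susceptible and 0% in resilient mice. No member had an unadjusted p under 0.05 either, where 0.482% of genes had one in susceptible and 0.597% in resilient mice. In susceptible mice the smallest p belonged to Gal3st1 at 0.34 ± 0.19 (unadjusted p = 0.0951), Ppp1r14a at 0.62 ± 0.40 and Fa2h at 0.22 ± 0.17. In resilient mice it belonged to Tmem125 at 0.55 ± 0.30 (unadjusted p = 0.0887), Plekhb1 at 0.52 ± 0.33 and Ppp1r14a at 0.56 ± 0.42.

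Mbp ranged over 199.5, 254 and 659.9 CPM in susceptible PFC, and its 5 resilient libraries had 679, 523, 511, 147 and 200.3 CPM, against 178, 282 and 566 CPM in control PFC. The resilient libraries thus split into 3 high and 2 low ones, which together spanned the control range. Mobp had 317, 247, 239.7, 59.4 and 78.9 CPM in the same resilient libraries and 82.2, 107 and 311 CPM in susceptible PFC, against 70.1, 126 and 314 CPM in control PFC, with the same split. In susceptible PFC, Mbp was at 0.10 ± 0.37, Mobp at -0.012 ± 0.43, Mog at -0.15 ± 0.36, Cldn11 at 0.065 ± 0.38, Ugt8a at 0.016 ± 0.25 and Myrf at 0.14 ± 0.31. In resilient PFC, Mbp was at 0.35 ± 0.38, Mobp at 0.26 ± 0.45, Mog at 0.35 ± 0.38, Cldn11 at 0.47 ± 0.40, Ugt8a at 0.18 ± 0.26 and Myrf at 0.32 ± 0.32. For 15 members, 5 of 6 control libraries lay above the susceptible median, and how many of all genes did the same was not counted.

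Between susceptible and resilient PFC the members' median was -0.18, with 24 of 33 lower, no call by edgeR (0% of genes), DESeq2 or limma-voom, and no unadjusted p under 0.05 (0.572% of genes). The smallest belonged to Mog at -0.50 ± 0.38 (unadjusted p = 0.205), and next came Anln at -0.25 ± 0.23, Tmem125 at -0.26 ± 0.31 and Mag at -0.38 ± 0.47. Mbp was at -0.25 ± 0.38, Mobp at -0.27 ± 0.45, Cldn11 at -0.40 ± 0.40, Ugt8a at -0.16 ± 0.26 and Myrf at -0.18 ± 0.33. Of the 17 PFC libraries, resilient library 4 was the lowest for 22 members, and resilient library 1 was the highest for 13 and susceptible library 1 for 12. Without susceptible library 1, the median in susceptible against control PFC was -0.16 and in susceptible against resilient PFC -0.37, with 1 member at an unadjusted p under 0.05. Without resilient library 4, the median in resilient against control PFC was 0.43, with 2 members, and without resilient library 1 it was 0.10. The 19 astrocyte genes had medians of 0.70 in susceptible and 0.72 in resilient PFC, with all 19 higher in each, and their part in the members' values was not tested beyond the covariate, which gave members' medians of -0.14 in susceptible and 0.050 in resilient PFC. The 10 pericyte and smooth muscle genes had medians of 0.49 in susceptible and 0.35 in resilient PFC, and the 12 neuron genes -0.28 in susceptible and -0.050 in resilient PFC. Without the PFC libraries numbered 1 and 2, the members' median was -0.16 in susceptible against control, 0.019 in resilient against control and -0.13 in susceptible against resilient PFC, with 0, 1 and 0 members at an unadjusted p under 0.05 in these comparisons.

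**Figure D4:**
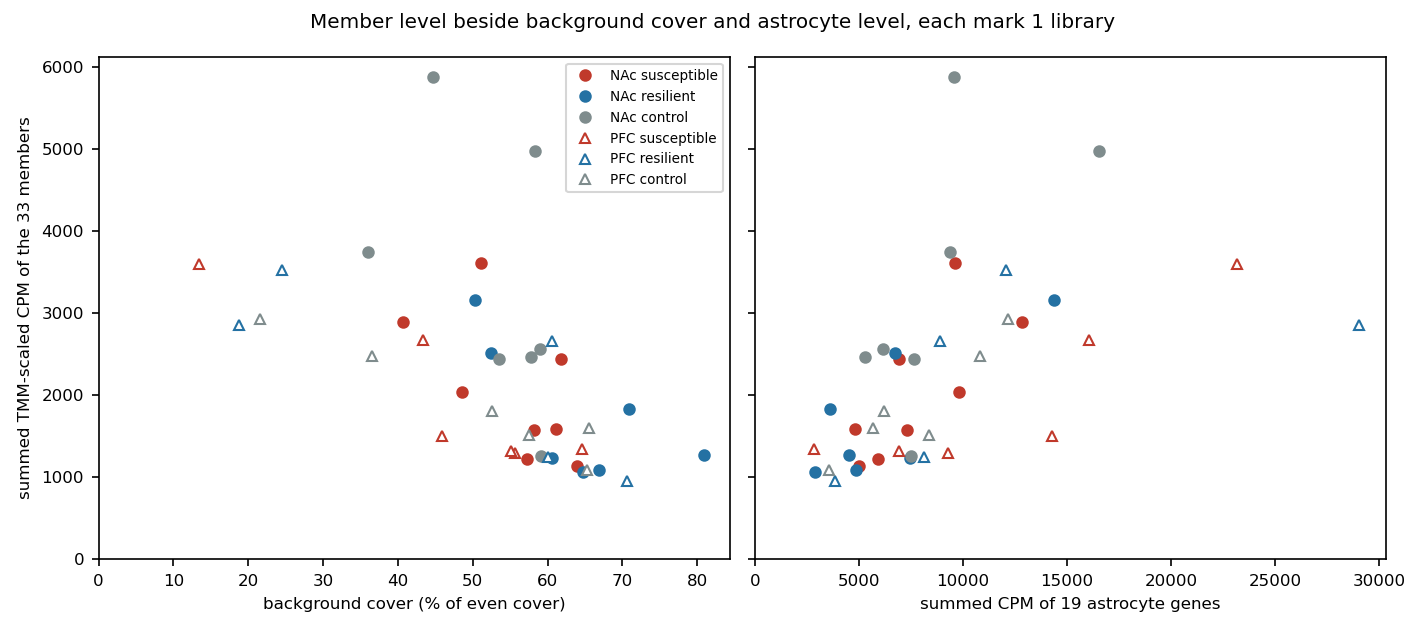
Summed TMM-scaled CPM of the 33 members in each library against its background cover in percent of an even cover (left) and against the summed CPM of 19 astrocyte genes (right), with NAc as filled circles, PFC as open triangles and colours for susceptible, resilient and control. The 2 highest member sums, 5874 and 4972 CPM, are control NAc libraries at 44.7% and 58.4% background.

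In control mice, all 33 members were higher in NAc than in PFC, and the median log2 fold change was 0.75, from 0.16 for Tmem125 to 1.22 for Nkx6-2, against -0.023 over all 38171 genes. By role the medians were 0.73 for membrane proteins, 0.53 for enzymes, 0.78 for transcription factors and 0.89 for secreted proteins. The fit treated all libraries as separate, also those with consecutive sample numbers. EdgeR called no member, and 0.00262% of genes in all, while 21 members were higher at an unadjusted p under 0.05, where 1.08% of genes were. Bcas1 ranged over 70.2, 105 and 155 CPM in control NAc, against 68.8, 71.6 and 78.5 CPM in control PFC, and 0 of 6 PFC libraries exceeded the NAc median. Its log2 fold change was 0.66 ± 0.15 (unadjusted p = 6.33e-05, adjusted p = 0.220). Prr18 ranged over 4.15, 7.83 and 14.4 CPM in control NAc, against 2.69, 3.55 and 7.42 CPM in control PFC, at 1.16 ± 0.28 (adjusted p = 0.220). The PFC values of Prr18 lay low except in 1 library. Over all libraries Bcas1 averaged 2.58 times and Prr18 2.07 times the mean background. Sec14l5 ranged over 46.4, 67.2 and 133 CPM in control NAc, against 36.0, 47.6 and 62.1 CPM in control PFC, at 0.75 ± 0.22 (adjusted p = 0.249). Mbp was at 0.99 ± 0.39, Mobp at 1.15 ± 0.45, Mog at 0.67 ± 0.40, Cldn11 at 1.00 ± 0.42, Ugt8a at 0.68 ± 0.26 and Myrf at 0.78 ± 0.33. For 10 of the 33 members no control PFC library exceeded the control NAc median, and how many of all genes did the same was not counted. The groups overlapped for every member, as they did for all but 0.283% of genes.

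The choice of method decided the calls in this comparison. DESeq2 called Bcas1 (0.68, adjusted p = 0.00858) and Prr18 (1.19, adjusted p = 0.0231), among 0.212% of genes called. Limma-voom with sample weights called Prr18 (1.12, adjusted p = 0.0196), among 0.0419% of genes. With the astrocyte level as a covariate, edgeR called Plekhb1, Bcas1, Prr18, Sec14l5 and Nkx6-2 (0.22% of genes), with adjusted p-values of 0.00362 to 0.0497. It called the same 5 when only genes above background were tested (1.37%), and these 5, Fa2h and Mobp with the background percent as a covariate (0.739%). The filter for background used the mean over all 39 libraries, control NAc included, the group where Prr18 was highest. Prr18 passed it narrowly, at 2.07 times background, so its call under that filter is no separate support. Without control NAc library 4, the median was 0.55, with 10 members at an unadjusted p under 0.05. That number was 13 without control NAc library 6 and 11 without control PFC library 4. The astrocyte genes had a median of 0.21 here, with 14 of 19 higher. The neuron genes had a median of -0.98, with 10 of 12 lower and 9 of them at an unadjusted p under 0.05, and their summed CPM was 1024 to 1599 in control NAc, against 1110.5 to 5624 in control PFC. The microglia genes had a median of -0.44, with 11 of 12 lower and 6 at an unadjusted p under 0.05. Their summed CPM was 196 to 319 in control NAc, against 191 to 341 in control PFC. For these counts of neuron and microglia genes, the share of all genes lower at that threshold is not given here. The medians were -0.13 for endothelial and -0.25 for pericyte and smooth muscle genes. No neuron gene of the list was at 0 in any library, while 4 of the 12 microglia genes (Aif1, C1qb, C1qc and Trem2) were at 0 in 1 or 2 libraries. Without the PFC libraries numbered 1 and 2, the members' median was 1.03, with 32 members at an unadjusted p under 0.05 and none called. The share of all genes at that threshold was not counted for this setting. The part of the other cell types in the members' values was not tested.

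In stressed mice the medians between regions were near 0 or below it. In susceptible mice the members' median for NAc against PFC was 0.011, with 18 of 33 higher, no call by edgeR (0.00262% of genes), DESeq2 or limma-voom, and no unadjusted p under 0.05 (6.23% of genes). The smallest p belonged to Ppp1r14a at -0.46 ± 0.37, Tmem125 at -0.36 ± 0.30 and Anln at 0.24 ± 0.20. Mbp was at 0.23 ± 0.37, Mobp at 0.31 ± 0.43, Mog at 0.22 ± 0.39, Cldn11 at 0.022 ± 0.40, Ugt8a at 0.0090 ± 0.26 and Myrf at -0.061 ± 0.31. In resilient mice the median was -0.39, with 29 of 33 lower and no call by edgeR (0% of genes), DESeq2 or limma-voom. Only Tmem125, at -0.95 ± 0.32, had an unadjusted p under 0.05 (0.00538), where 14.6% of all genes had one. Next came Ppp1r14a at -0.71 ± 0.40 and Gpr37, an orphan receptor gene, at -0.71 ± 0.41. Mbp was at -0.39 ± 0.40, Mobp at -0.30 ± 0.46, Mog at -0.49 ± 0.42, Cldn11 at -0.62 ± 0.43, Ugt8a at -0.19 ± 0.28 and Myrf at -0.43 ± 0.34. The astrocyte genes had a median of -0.59 in susceptible and -1.06 in resilient mice, and with their level as a covariate the members' median was 0.23 in susceptible and 0.14 in resilient mice. The neuron genes had medians of -0.68 in susceptible and -0.72 in resilient mice, and the pericyte and smooth muscle genes -0.75 in susceptible and -0.86 in resilient mice. Without the PFC libraries numbered 1 and 2, the members' median was 0.44 in susceptible mice, with 5 members at an unadjusted p under 0.05, and 0.15 in resilient mice, with 0. Without PFC susceptible library 1 the median in susceptible mice was 0.26. In resilient mice it was -0.17 without PFC resilient library 1, and the members at an unadjusted p under 0.05 numbered 3 without NAc resilient library 1, 2 without library 2, 5 without PFC resilient library 4 and 3 without library 5.

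Whether the stress effect differed between regions was tested in 1 fit of all libraries, again treated as separate. The value tested was the NAc effect minus the PFC effect. For susceptible mice it was below 0 for all 33 members, with a median of -0.71, and 6 had an unadjusted p under 0.05, where 0.597% of genes were lower at that threshold. For resilient mice it was also below 0 for all 33, with a median of -1.12, and 25 had an unadjusted p under 0.05, where 2.1% of genes were lower. Both differences use the same control libraries of NAc and PFC, as does the comparison of regions in control mice, so they are not independent. Neither difference was called for a member by edgeR (0% of genes for susceptible and 0% for resilient mice), DESeq2 or limma-voom. In susceptible mice the smallest p belonged to Bcas1 at -0.52 ± 0.20 (unadjusted p = 0.0152), Ppp1r14a at -1.23 ± 0.53 and Fa2h at -0.60 ± 0.26. Mbp was at -0.75 ± 0.53, Mobp at -0.84 ± 0.61, Mog at -0.45 ± 0.55, Cldn11 at -0.98 ± 0.58, Ugt8a at -0.67 ± 0.37 and Myrf at -0.84 ± 0.45. In resilient mice it belonged to Plekhb1 at -1.25 ± 0.42 (unadjusted p = 0.00519), Bcas1 at -0.63 ± 0.21 and Nkx6-2 at -1.53 ± 0.54. Mbp was at -1.37 ± 0.56, Mobp at -1.45 ± 0.64, Mog at -1.16 ± 0.58, Cldn11 at -1.61 ± 0.60, Ugt8a at -0.87 ± 0.38 and Myrf at -1.21 ± 0.47. The astrocyte genes had medians of -0.78 in susceptible and -1.31 in resilient mice, below 0 for all 19 in both. With their level as a covariate the members' median was -0.40 in susceptible and -0.51 in resilient mice, and with limma-voom -0.37 in susceptible and -0.50 in resilient mice. The pericyte and smooth muscle genes had medians of -0.61 in susceptible and -0.59 in resilient mice, and the microglia genes 0.33 in susceptible and 0.33 in resilient mice. Without the PFC libraries numbered 1 and 2, the members' median was -0.54 in susceptible mice, with 0 members at an unadjusted p under 0.05, and -0.87 in resilient mice, with 3, from fewer libraries. In resilient mice the number of members at an unadjusted p under 0.05 was 15 without control NAc library 4 and 12 without PFC resilient library 1. In susceptible mice it was 1 without control NAc library 4, 14 without control NAc library 7, 13 without NAc susceptible library 3 and 3 each without control NAc library 6, NAc susceptible library 6, control PFC library 3 and PFC susceptible libraries 1 and 2.

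Genes of other stages of the oligodendrocyte lineage were set beside the members. Of 25 other genes of mature oligodendrocytes, 24 were lower in susceptible and 24 in resilient than in control NAc, with medians of -0.49 in susceptible and -0.67 in resilient mice. None was called, and 11 had an unadjusted p under 0.05 in susceptible and 19 in resilient mice. Of all genes, 1.55% in susceptible and 4.31% in resilient mice were lower at that threshold. The smallest p belonged to Adamts4, a protease gene, at -0.86 ± 0.29 in susceptible and -1.12 ± 0.30 in resilient mice. The 12 genes of newly formed oligodendrocytes had medians of -0.039 in susceptible and -0.093 in resilient NAc, and 0 and 2 were lower at an unadjusted p under 0.05. Gpr17, a receptor gene of that stage, was among them at -0.63 ± 0.23 in resilient mice. The 12 precursor genes had medians of -0.046 in susceptible and -0.057 in resilient NAc, where Cspg4, which encodes a proteoglycan of precursors, was at -0.35 ± 0.14 in resilient mice. Between NAc and PFC of control mice the medians were 0.55 for other mature, 0.072 for newly formed and -0.062 for precursor genes. These lists stood at different heights over background. A mean FPKM at least 2 times background was found for 31 of 33 members, 24 of 25 other mature, 7 of 12 newly formed and 5 of 12 precursor genes. The part of this height in the small medians of the last 2 lists was not tested.

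**Figure D5:**
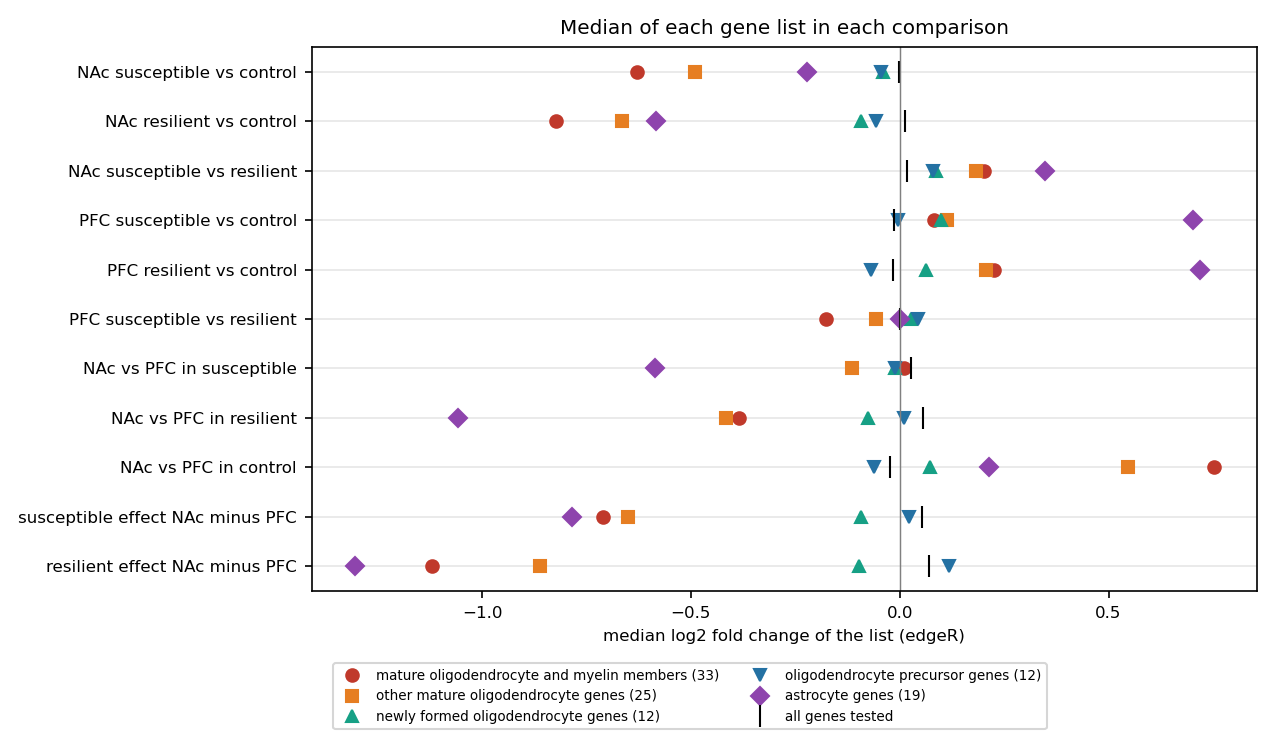
Median log2 fold change (edgeR) of the 33 members, 4 other gene lists and all genes tested in each of the 11 comparisons. The newly formed and precursor genes stay between -0.10 and 0.12 in all 11, while the members reach -1.12 and 0.75.

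The members varied unequally from library to library. Within a group the median coefficient of variation of the members (SD over mean of the CPM) was 0.373 in susceptible, 0.505 in resilient and 0.487 in control NAc. In PFC it was 0.480 in susceptible, 0.508 in resilient and 0.333 in control libraries. Gal3st1 or Bcas1 varied least in 5 of the 6 groups and Pllp, which encodes plasmolipin, in susceptible NAc. Cnp, Evi2a, Ermn or Nkx6-2 varied most. Over the mean background, Gal3st1 stood at 2.93 times, Bcas1 at 2.58 times and Pllp at 2.88 times, while Cnp stood at 15.5 times, Ermn at 11.0 times, Nkx6-2 at 6.49 times and Evi2a at 1.82 times. The part of the background in these spreads was not tested. Evi2a had as few as 1 count in a library, Tmem125 2 and Gjb1 3, so single values of these members rest on few reads, whereas Mbp had at least 333.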

How the data were processed

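Total RNA libraries were made from 500 pg of RNA with a stranded kit, per the labels' protocols. The authors deposited whole-number counts per gene, made with featureCounts on mm10 per the submitters' processing notes. For the aligner, annotation and strand setting, the sources used here give nothing. In the deposited tables, FPKM equalled the counts divided by library total and whole gene span in GENCODE M21 for 54229 of 54229 genes compared (relative tolerance 1e-06), so counts include introns. 55141 identifiers matched without version and 260 did not. No 2 libraries were identical.

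Counts were tested with edgeR 4.0.16 (quasi-likelihood, robust, default count filter, TMM scaling, Benjamini-Hochberg over all genes tested) in R 4.3.3, with DESeq2 1.42.0 and limma 3.58.1 as alternatives. Each region's 3 conditions shared 1 fit, and the region comparisons and their differences came from 1 fit of all 39 libraries. The alternatives also covered relative log expression scaling, no count filter, limma-trend on log2(FPKM + 0.5), only genes above background, the astrocyte level or background percent as a covariate, replicate blocks, and leaving out single libraries or the 3 shallowest, and, chosen after seeing the data, leaving out the PFC libraries numbered 1 and 2. Even cover of the 1309 Mb of gene spans corresponds to 0.764 FPKM. Permutation tests used scipy 1.17.1. The edgeR fits were tested on simulated counts in which each gene was drawn on its own. That test does not cover genes that move together across libraries. The members, gene lists and tests were chosen with earlier results of these data known. In each comparison the 6 core members (Mbp, Mog, Mobp, Cldn11, Ugt8a and Myrf) and the 3 others of smallest p are named. P-values are two-sided and set a group difference against the spread between libraries, which are taken as separate. Of the sample numbers, 16 pairs are consecutive across regions and may be 1 mouse each, which the labels do not settle.

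Replicate numbers were checked for pairing by the correlation of same-numbered libraries' deviations from their group means. For susceptible with resilient PFC all 5 pairs exceeded 0.1 (lowest 0.114 over genes of log2 CPM above 1 and 0.228 above 3), and so did all 5 pairs of resilient with control PFC (lowest 0.269 and 0.418). For susceptible with control PFC 5 of 6 did above 1 and all above 3. For resilient NAc with control PFC all 6 pairs did (lowest 0.179 above 1 and 0.266 above 3), and for resilient NAc with susceptible PFC 5 of 6. In every other combination of groups at least 1 pair was below 0 over genes above 1. Pairs of consecutive sample numbers across regions exceeded 0.1 in 4 of 6 of susceptible, 3 of 4 of resilient and 2 of 6 of control mice. The labels do not say what the numbers share.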

Additional observations from a re-analysis of the deposited data

Results flagged for a closer look

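3 of 210 sets of values had 1 library far from the others of its group by Dixon's ratio, where chance alone marks about 1 in 20. Enpp2 in susceptible PFC library 1 had 377 CPM, while the other 5 libraries lay between 115 and 198 CPM. Pllp in resilient PFC library 1 had 34.5 CPM, while the other 4 libraries lay between 16.4 and 20.3 CPM. Prr18 in control PFC library 2 had 7.42 CPM, while the other 5 libraries lay between 2.69 and 3.86 CPM. These 3 libraries had background covers of 13.4%, 24.5% and, for the control library, 21.5%, and the part of that in the values was not tested.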

How the results depend on the processing

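Calls of members moved in NAc against PFC of control mice alone, to 2 with DESeq2, 5 with the astrocyte level, 7 with the background percent, 1 with limma-voom and 5 with only genes above background, against 0, and the cause was not tested. The members' median in the resilient difference between regions was -0.51 with the astrocyte level and -0.50 with limma-voom, against -1.12. Over single libraries left out, the median ran over -0.79 to -0.44 in susceptible and -0.99 to -0.59 in resilient against control NAc, 0.55 to 0.93 in NAc against PFC of control mice, -0.88 to -0.51 in the susceptible and -1.36 to -0.90 in the resilient difference between regions.

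With the replicate block, 0 members were called in each comparison, so the block changed no call. The median with the replicate block was 0.15 in resilient against control PFC and -0.080 in susceptible against resilient PFC. The members at an unadjusted p under 0.05 numbered 3 with the block in the susceptible difference between regions, against 6, and 1 in susceptible against resilient NAc, against 0.

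The signs that turned lie in comparisons where no setting called a member. With the astrocyte level as a covariate, the log2 fold changes with a turned sign were Mog -0.18, Mobp -0.083, Cldn11 -0.20, Ugt8a -0.21 and Myrf -0.11 in susceptible against resilient NAc, Mbp -0.14, Cldn11 -0.19, Ugt8a -0.14 and Myrf -0.063 in susceptible against control PFC, Mobp -0.013 in resilient against control PFC, Myrf 0.14 in NAc against PFC of susceptible mice, Mbp 0.15, Mog 0.059, Mobp 0.36, Ugt8a 0.14 and Myrf 0.027 in NAc against PFC of resilient mice. With the background percent as a covariate, the log2 fold changes with a turned sign were Mog -0.16, Mobp -0.050, Cldn11 -0.18, Ugt8a -0.10, Myrf -0.17 and Nkx6-2 -0.036 in susceptible against resilient NAc, Mbp -0.025, Cldn11 -0.080 and Ugt8a -0.073 in susceptible against control PFC, Myrf 0.23 in NAc against PFC of susceptible mice, Mbp 0.22, Mog 0.18, Mobp 0.43, Cldn11 0.044, Ugt8a 0.11, Myrf 0.14, Ppp1r14a 0.088 and Gpr37 0.059 in NAc against PFC of resilient mice. With limma-voom and sample weights, the log2 fold changes with a turned sign were Mbp -0.10, Cldn11 -0.19, Ugt8a -0.16 and Myrf -0.088 in susceptible against control PFC, Mbp -0.12, Mog -0.0013, Mobp -0.24, Cldn11 -0.34, Ugt8a -0.068, Myrf -0.19 and Ppp1r14a -0.12 in resilient against control PFC, Mbp 0.026, Mobp 0.071, Cldn11 0.15, Myrf 0.10 and Mag 0.15 in susceptible against resilient PFC, Myrf 0.21 in NAc against PFC of susceptible mice, Mbp 0.18, Mobp 0.39, Cldn11 0.14, Ugt8a 0.024 and Myrf 0.041 in NAc against PFC of resilient mice. With limma-trend on log2(FPKM + 0.5), the log2 fold changes with a turned sign were Cldn11 -0.015 and Ugt8a -0.027 in susceptible against control PFC, Myrf 0.10 in NAc against PFC of susceptible mice, Mobp 0.018 and Ugt8a 0.028 in NAc against PFC of resilient mice. With only genes above background, the log2 fold changes with a turned sign were Ugt8a -0.082 in susceptible against resilient NAc, Mbp -0.020 and Cldn11 -0.077 in susceptible against control PFC, Myrf 0.19 in NAc against PFC of susceptible mice, Mobp 0.10 and Ugt8a 0.14 in NAc against PFC of resilient mice. With the replicate block, the log2 fold changes with a turned sign were Ugt8a -0.0011 in susceptible against control PFC, Myrf 0.21 in NAc against PFC of susceptible mice. With a replicate block of consecutive sample numbers, the log2 fold changes with a turned sign were Mbp -0.029, Mobp -0.0095, Cldn11 -0.29 and Ugt8a -0.14 in NAc against PFC of susceptible mice, Mbp 0.10, Mobp 0.25, Ugt8a 0.10 and Myrf 0.032 in NAc against PFC of resilient mice. Without the 3 shallowest libraries, the log2 fold changes with a turned sign were Mobp 0.051 in susceptible against control PFC, Ugt8a -0.015 in resilient against control PFC, Ugt8a 0.030 in susceptible against resilient PFC, Cldn11 -0.0081 in NAc against PFC of susceptible mice. Without the PFC libraries numbered 1 and 2, the log2 fold changes with a turned sign were Mbp -0.064, Cldn11 -0.27, Ugt8a -0.15 and Myrf -0.13 in susceptible against control PFC, Myrf 0.44 and Ppp1r14a 0.19 in NAc against PFC of susceptible mice, Mbp 0.16, Mog 0.13, Mobp 0.33, Ugt8a 0.012, Myrf 0.11, Ppp1r14a 0.11 and Gpr37 0.088 in NAc against PFC of resilient mice. With DESeq2, it was Mobp 0.00070 in susceptible against control PFC. With relative log expression scaling, it was Mobp 0.0015 in susceptible against control PFC. Without a count filter, it was Ugt8a -0.0072 in susceptible against control PFC. Leaving out 1 library at a time gave Ugt8a -0.11 to 0.14 in susceptible against resilient NAc. It gave Cldn11 -0.16 to 0.19, Mbp -0.16 to 0.30, Mobp -0.31 to 0.26, Mog -0.42 to 0.063, Myrf -0.054 to 0.24 and Ugt8a -0.16 to 0.14 in susceptible against control PFC. It gave Ugt8a -0.018 to 0.37 in resilient against control PFC. It gave Anln -0.37 to 0.054, Myrf -0.39 to 0.040 and Ugt8a -0.34 to 0.034 in susceptible against resilient PFC. It gave Cldn11 -0.19 to 0.26, Myrf -0.18 to 0.15 and Ugt8a -0.14 to 0.20 in NAc against PFC of susceptible mice.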
